A study of Homo sapiens with 10 samples.

Results

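The epithelial keratins KRT7, KRT8, KRT18, KRT19, KRT20, KRT80, KRT81, KRT5, KRT17 and KRT23 were followed as a family, chosen by name, and make up 10 of the 55 keratin genes and 10 of the 58037 gene identifiers in the expression tables. The choice was made with earlier results of these data known. Of these 10 genes, 7 had enough reads to be tested among the 16406 genes tested. The cells were A549, an established human lung cancer line of epithelial origin, and A549/DDP, a line derived from it that resists cisplatin (DDP), a platinum drug that crosslinks DNA. Each line gave 2 input libraries of RNA that was not pulled down and 2 m6A-seq libraries, in which RNA fragments carrying N6-methyladenosine, a methyl mark on adenosine in mRNA, were pulled down with an antibody. Both lines were grown in the same medium at low passage, the growth labels name no drug, and nothing says that the replicates came from separate cultures, so p-values measure only the spread between these libraries. The labels of the A549/DDP inputs give the cell line as A549 and the resistance under cell type. Each line is a single line, so resistance and any other difference between these lines cannot be told apart.

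Keratins are the intermediate filament proteins of epithelial cells. They assemble as obligate pairs of a type II (basic) and a type I (acidic) chain, and the filaments are tied to desmosomes, which join cells to each other, and to hemidesmosomes, which join cells to the matrix. Simple epithelia such as the lining of the lung make KRT8 and KRT18, usually with KRT7 and KRT19. KRT5 marks basal cells of stratified epithelia, KRT17 basal and stressed epithelia, KRT20 the gut lining, and KRT81 is a keratin of hair that some tumour cells also make. Of the family described here, KRT7, KRT8, KRT5, KRT80 and KRT81 are type II, and KRT18, KRT19, KRT17, KRT20 and KRT23 are type I.

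The RefSeq promoter windows (GRCh38.p14, 250 bases before to 50 bases after a start) held 3 of the 10 genes, KRT8, KRT5 and KRT20. The 100 bases around each of these starts are given 5′ to 3′ on the gene's strand, because KRT8 was the most abundant keratin RNA of A549/DDP and KRT5 and KRT20 were at or near 0 in every library. They lie on the minus strand at chr12:52926420-52926519 for KRT8, chr12:52520345-52520444 for KRT5 and chr17:40885193-40885292 for KRT20. Capitals mark the letters ATAAAA, a form of the TATA element.
KRT8: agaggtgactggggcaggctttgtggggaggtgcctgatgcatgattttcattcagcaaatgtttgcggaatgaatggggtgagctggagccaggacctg
KRT5: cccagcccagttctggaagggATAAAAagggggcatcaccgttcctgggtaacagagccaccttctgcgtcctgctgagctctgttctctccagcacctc
KRT20: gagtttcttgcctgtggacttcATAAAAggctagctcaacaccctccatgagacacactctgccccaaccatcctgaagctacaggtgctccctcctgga
Searched on both strands of the 300-base windows, ATAAAA was found in the windows of KRT5 and KRT20 and not in that of KRT8, and 16.0% of the 35116 RefSeq windows of this length held it. The KRT8 window also held neither TATAAA, present in 11.5% of windows, nor GGGCGG, present in 45.0%. These letters were chosen after the sequences were seen, and a match is a description only. The KRT8 window surrounds a start inside the gene span, not the outermost start of the gene. Whether the KRT8 RNA of these cells begins at this start was not tested.

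The input libraries held 29225501 to 35286514 expected counts, and 15830 to 19263 genes were above 0. The libraries within a line did not agree within sampling noise (chi-square per degree of freedom 89.6 for the A549 pair and 54.9 for the A549/DDP pair). Genes with at least 100 counts in one library and 0 in the other library of the same line numbered 207 of 12061 for A549/DDP 1 against A549/DDP 2 and 149 of 12237 the other way, against 43 and 37 in the A549 pair. Of 16406 genes tested, 2437 were called between the lines at an adjusted p under 0.05 (14.9%), 1124 of them higher in A549/DDP (6.85%) and 1313 lower (8.00%). The labels name a lung cancer line. E-cadherin (CDH1) stood at 33.6, 83.4, 312 and 249 TMM-normalized CPM (counts scaled to library size) in A549 1, A549 2, A549/DDP 1 and A549/DDP 2. EPCAM was at only 1.91 to 5.67 CPM, while the surfactant genes SFTPA1 and SFTPC of alveolar cells were at 0 in all 4 inputs and NKX2-1 had 1 count in A549/DDP 1 only. The other alveolar markers were low, with 42 to 99 counts for AGER, 0 to 29 for SFTPD and 30 for SFTPB in A549/DDP 1 only, and the 6 alveolar markers summed to 1.27 to 7.57 TPM. Over 6 markers each, summed levels were 3.48 to 22.0 TPM (transcript levels scaled for length and library size) for fibroblasts, 2.58 to 8.09 TPM for leukocytes and 0 to 1.64 TPM for endothelium. CD3E was at 0 in all 4 inputs. Of these 18 markers 6 had enough reads to be tested, and edgeR called none of the 6.

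Keratin RNA was shifted between the lines from KRT7 and KRT80 towards KRT8 and KRT18. In A549/DDP, KRT8 was 2.97-fold and KRT18 2.27-fold higher, whereas KRT7 was 3.16-fold and KRT80 4.88-fold lower. KRT81 was abundant in both lines and was not called. KRT19 was low and differed between the libraries of A549/DDP, and KRT17, KRT20, KRT5 and KRT23 were near 0 throughout. In edgeR (quasi-likelihood test, Benjamini-Hochberg adjusted over all genes tested), 2 of the 7 tested keratins were higher, 2 were lower and 3 were not called. That is 4 of 7 beside a background of 14.9% in either direction, and the median log2 fold change of the 7 was 0.42 beside -0.0016 for all genes. Since the genes were chosen with earlier results of these data known, this share is a description only. The CPM ranges of the lines did not overlap for 6 of the 7, which is also so for 62.4% of all genes tested and so says little by itself. In these bulk libraries, fewer cells making a keratin and less of its RNA per cell cannot be told apart.

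Of the type II chains, KRT8 is the partner of KRT18 in nearly all simple epithelia. KRT8 had 47768 and 109664 counts in A549 1 and A549 2 and 203391 and 231913 in A549/DDP 1 and A549/DDP 2. As levels per length, these were 2028 and 5231 TPM in A549 and 9818 and 9891 TPM in A549/DDP. Both A549/DDP libraries were above both A549 libraries, but in CPM the A549 libraries lay 2.13-fold apart, the widest gap within a line among the 5 abundant keratins. In TPM, KRT8 ranked 36th and 2nd among all genes in the A549 inputs and 1st in both A549/DDP inputs, where no other gene was higher. The level was 2273 ± 1161 CPM in A549 and 6755 ± 151 CPM in A549/DDP (SD, n = 2 each), a log2 fold change of 1.57 (SE 0.34, edgeR adjusted p = 0.0324). Without A549 2 the log2 fold change was 2.20, and without A549 1 it was 1.11, each from a fit with 1 A549 library.

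KRT8 and KRT18 have many processed pseudogenes, which could take part of their reads. The 51 KRT8 pseudogenes together held 1.42%, 0.692%, 0.258% and 0.238% as many counts as KRT8 in A549 1, A549 2, A549/DDP 1 and A549/DDP 2. Summing KRT8 with them left the log2 fold change at 1.56 (edgeR adjusted p = 0.0323). The 68 KRT18 pseudogenes held at most 0.255% as many counts as KRT18, and the sum had a log2 fold change of 1.18 (edgeR adjusted p = 0.0146).

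KRT7 is a type II keratin of glandular and ductal epithelia and a routine marker of lung adenocarcinoma. It had 162811 and 106288 counts in A549 and 38517 and 42320 in A549/DDP. Per length these were 4937 and 3468 TPM in A549 and 1306 and 1255 TPM in A549/DDP. Both A549 libraries were above both A549/DDP libraries, and KRT7 went from the 4th and 13th highest TPM among all genes in A549 to the 99th and 105th in A549/DDP. The level fell from 3974 ± 1379 to 1256 ± 61.0 CPM (SD, n = 2 each), a log2 fold change of -1.66 (SE 0.25, edgeR adjusted p = 0.0117). Across the alternatives listed under the processing, it ran from -1.99 to -1.27 and stayed called.

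The antisense gene KRT7-AS, which overlaps KRT7 on the other strand, moved the same way. It stood at 57.9 and 51.4 CPM in A549 and 12.3 and 11.7 CPM in A549/DDP, with no overlap between the lines, and its log2 fold change was -2.19 (SE 0.26, edgeR adjusted p = 0.0064). The libraries were made with a strand-specific protocol. The strand setting of the counting is not given in the sources used here, so reads of KRT7 and KRT7-AS may not be told apart in the counts.

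KRT80 is a type II keratin found close to desmosomes and at cell margins, with a wider tissue range than most keratins. It had 22166 and 15605 counts in A549 and 3642 and 3680 in A549/DDP. Its levels of 267 and 200 TPM in A549 stood above those of 50.3 and 43.7 TPM in A549/DDP. The level fell from 557 ± 165 to 114 ± 12.3 CPM (SD, n = 2 each), with a log2 fold change of -2.29 (SE 0.25, edgeR adjusted p = 0.0052), the largest change among the called keratins. It was not called when the second pair of A549 inputs, of unknown purpose and low depth, replaced the first (log2 fold change -0.04, edgeR adjusted p = 0.939). In that fit the median over all genes was itself 0.80, and KRT80 rested on 18 and 10 counts in the second pair.

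KRT81, the hair keratin of the group, had 104922 and 68756 counts in A549 and 102504 and 118851 in A549/DDP. Per length it stood at 2534 and 1774 TPM in A549 and at 2942 and 2938 TPM in A549/DDP. Both A549/DDP libraries were above both A549 libraries, but the gap to the higher A549 library was smaller than the gap within A549. The log2 fold change of 0.42 (SE 0.24, edgeR adjusted p = 0.298) was not called. It reached the threshold without A549 1 (0.81, edgeR adjusted p = 9.57e-15), where the lone A549 library is assumed to vary as the A549/DDP pair does, and when the other A549 input pair was used (1.72, edgeR adjusted p = 2.42e-06). In the fit with the other A549 pair the median over all genes was 0.80, and KRT81 rested on 130 and 119 counts in that pair. KRT81 is close in sequence to KRT83, KRT85 and KRT86, and the counting may divide reads among them. Summed over the 4 genes the log2 fold change was 0.40 (edgeR adjusted p = 0.333).

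KRT5, the type II keratin of basal cells, had 1 count in A549 1 and 0 in the other 3 inputs. With the totals of these libraries, 0 counts allow a level of up to 0.0868 CPM in A549 2, 0.103 CPM in A549/DDP 1 and 0.0883 CPM in A549/DDP 2 (3 counts, counting error only), and KRT5 was not tested.

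Of the type I chains, KRT18 carried nearly all of the RNA. It had 47287 and 71570 counts in A549 and 117237 and 136118 in A549/DDP. Per length it stood at 1591 and 2578 TPM in A549 and at 4683 and 4725 TPM in A549/DDP, so that the lines did not overlap. Its rank by TPM among all genes was 68th and 24th in A549 and 11th and 9th in A549/DDP. The level was 1728 ± 411 CPM in A549 and 3929 ± 37.6 CPM in A549/DDP (SD, n = 2 each), a log2 fold change of 1.18 (SE 0.19, edgeR adjusted p = 0.0146). It was called under all 11 alternatives run, with log2 fold changes of 0.95 to 2.59. The highest of these came from the second pair of A549 inputs, in which KRT18 rested on 53 and 105 counts. The median over all genes was 0.80 in that fit.

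KRT19, the smallest keratin, is a type I chain of ductal epithelia and the source of the serum marker CYFRA. It had 966 and 1457 counts in A549, 213 in A549/DDP 1 and 0 in A549/DDP 2. Per length it stood at 33.3 and 64.0 TPM in A549 and at 9.24 and 0 TPM in A549/DDP. Both A549/DDP libraries were below both A549 libraries, but they also differed from each other more than counting error allows, since 0 counts allow at most 0.0883 CPM and A549/DDP 1 had 7.19 CPM. The log2 fold change of -3.30 (SE 1.62, edgeR adjusted p = 0.221) was not called. The log2 fold change was -2.30 without A549/DDP 2, -13.25 without A549/DDP 1, -3.53 without A549 1 and -3.05 without A549 2. Each of these fits leaves 1 library in a line, which is assumed to vary as the other line does. Calls from these fits are therefore no support for a change in KRT19. The fit without A549/DDP 1 compares with a library at 0, so its fold depends on the prior count and is no measure of size. With no filter beyond 1 count KRT19 was called, at nearly the same log2 fold change of -3.31 (edgeR adjusted p = 1.00e-10). The call thus depended on which genes were kept, while the size of the change hardly moved. KRT19 is 1 of the 207 genes with at least 100 counts in A549/DDP 1 and 0 in A549/DDP 2, and the part of that library difference in the KRT19 result was not tested.

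KRT17, KRT20 and KRT23 were near or below the level of single counts. KRT17, a type I keratin induced in wounded and tumour epithelium, had 13 and 0 counts in A549 and 22 and 0 in A549/DDP, so that each line had a library with counts and a library with none. Its log2 fold change of 0.90 (SE 2.87, edgeR adjusted p = 0.883) was far inside its error, and it turned to -0.11 without A549 2. KRT20 had 3 and 15 counts in A549 and 8 and 0 in A549/DDP. KRT23 had 1 and 0 counts in A549 and 3 and 0 in A549/DDP. Neither gene was tested, and differences were not detectable at this depth.

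Within A549/DDP the order of the abundant keratins was the same in both libraries and their ranges in TPM did not overlap, with KRT8 above KRT18, KRT81, KRT7 and KRT80 in turn. Within A549 KRT7 was above KRT81 and KRT18 in both libraries, and KRT80, at 200 and 267 TPM, was below the other 4. The wide range of KRT8 in A549 overlapped those of KRT7, KRT81 and KRT18, and the ranges of KRT81 and KRT18 overlapped each other. Within each A549 library KRT8 was still above KRT18, at 2028 against 1591 TPM in A549 1 and 5231 against 2578 TPM in A549 2. The order of KRT8 with KRT7, KRT8 with KRT81 and KRT81 with KRT18 differed between the A549 libraries, so these could not be put in order.

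Summed over all 55 keratin genes, keratin RNA was 11636 and 13485 TPM in A549 and 18923 and 18985 TPM in A549/DDP, or 1.16% and 1.35% against 1.89% and 1.90% of all TPM. KRT8 made up 17.4% and 38.8% of the keratin TPM in A549 and 51.9% and 52.1% in A549/DDP. KRT7 made up 42.4% and 25.7% in A549 and 6.90% and 6.61% in A549/DDP. The KRT7 to KRT8 ratio in TPM was thus 2.43 and 0.663 in A549 and 0.133 and 0.127 in A549/DDP, and its ranges did not overlap. KRT81 held 21.8%, 13.2%, 15.5% and 15.5% of the keratin TPM in A549 1, A549 2, A549/DDP 1 and A549/DDP 2, with the A549/DDP values inside the range of A549.

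**Figure D1:**
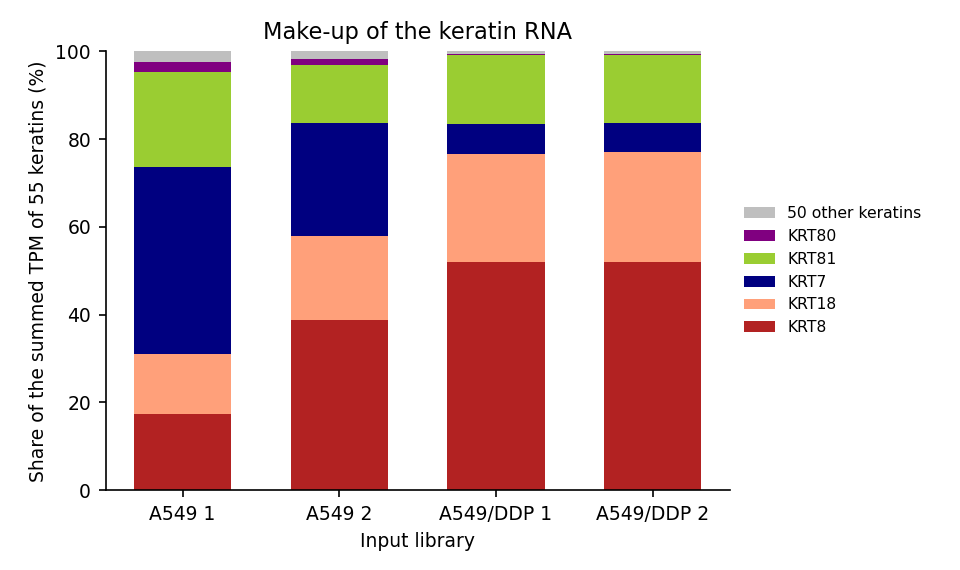
Share of each keratin in the summed TPM of 55 keratins, in percent, as 1 stacked bar for each input library. KRT8 and KRT18 fill most of both A549/DDP bars, KRT7 shrinks from 42.4% and 25.7% in A549 to 6.90% and 6.61%, and the A549 bars differ from each other far more than the A549/DDP bars do.

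Since filaments need both types of chain, the balance of types was set out. Type II keratins summed to 5.64 and 3.92 times the TPM of type I keratins in A549 and to 3.01 and 2.96 times in A549/DDP. KRT18 was 90.7% and 94.0% of the type I RNA in A549 and 99.3% and 98.7% in A549/DDP. The KRT8 to KRT18 ratio was 1.27 and 2.03 in A549 and 2.10 and 2.09 in A549/DDP. These are RNA ratios and no protein was measured.

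Of the 45 other keratin genes, 31 were at 0 in all 4 inputs, 6 could be tested and edgeR called 0 of them, with 2 at an unadjusted p under 0.05. DESeq2 called 1 and limma called 0. KRT86, a hair keratin next to KRT81, was the most abundant at 154 and 66.2 CPM in A549 and 104 and 83.0 CPM in A549/DDP (log2 fold change -0.24, edgeR adjusted p = 0.754), and the lines overlapped. KRT10, the type I keratin of differentiated epidermis, was at 57.7 and 35.7 CPM in A549 and 15.2 and 30.6 CPM in A549/DDP (log2 fold change -1.03, edgeR adjusted p = 0.155). KRT4, of mucosal epithelium, was at 2.98 and 14.8 CPM in A549 and 0.911 and 0.516 CPM in A549/DDP (log2 fold change -3.64, edgeR adjusted p = 0.0784). KRT83 stood at 1.43 and 0.423 CPM in A549 and 4.66 and 0.975 CPM in A549/DDP, and KRT15 at 2.31 and 1.47 against 1.69 and 0 CPM, each with overlapping lines. KRT222 stood at 0.486 and 0.536 CPM in A549 and at 0 in both A549/DDP inputs. None of these 6 genes passed the edgeR test.

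Among genes of desmosomes, hemidesmosomes and plakin linkers, more were called lower than higher in A549/DDP, and the higher call rests on 1 gene. This list, named attachment genes here, is wider than keratin attachment, since it also holds MACF1. Of its 24 genes, 19 were tested, 1 was higher in A549/DDP, 5 were lower and 13 were not called. Read against the background of 6.85% higher and 8.00% lower over all genes, the share lower is above it, the share higher is not, and the median log2 fold change of the list was -0.14. This list was also chosen with earlier results of these data known, so its shares are a description only. Desmoplakin (DSP), which binds keratin to desmosomes, rose from 192 and 202.4 CPM in A549 to 320 and 347 CPM in A549/DDP (log2 fold change 0.76, SE 0.15, edgeR adjusted p = 0.0270). Periplakin (PPL), another plakin of the desmosome, fell from 32.9 and 47.5 to 12.7 and 9.32 CPM (log2 fold change -1.87, SE 0.35, edgeR adjusted p = 0.0210). Both genes had lines that did not overlap.

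Plakophilin 2 (PKP2), a desmosome plaque protein, fell from 75.6 and 101 CPM in A549 to 29.0 and 23.3 CPM in A549/DDP (log2 fold change -1.76, edgeR adjusted p = 0.0104). PKP4, a related armadillo protein of cell junctions, fell from 255 and 283 to 117 and 97.2 CPM (log2 fold change -1.32, edgeR adjusted p = 0.0091). Integrin beta 4 (ITGB4), the hemidesmosome receptor for laminin that binds keratin through plectin, fell from 130 and 184 to 45.9 and 49.9 CPM (log2 fold change -1.71, edgeR adjusted p = 0.0089). MACF1, a plakin that links actin and microtubules, fell from 762 and 687 to 262 and 273 CPM (log2 fold change -1.44, edgeR adjusted p = 0.0048). In CPM the A549/DDP libraries lay below both A549 libraries for each of the 4. In TPM the lines overlapped for ITGB4, at 89.7 and 230 TPM in A549 and 21.6 and 101 TPM in A549/DDP. Plectin (PLEC) was not called, with 2065 and 1592 CPM in A549 and 1630 and 1526 CPM in A549/DDP (log2 fold change -0.21, edgeR adjusted p = 0.473). With limma on FPKM only 1 gene of the list was called, which was lower, beside 1632 of the 14369 genes that limma tested. Without A549 2 edgeR called 10, of which 3 were higher, and without A549/DDP 1 or A549/DDP 2 it called 5, of which 0 were higher. With the second A549 pair 6 were called and 5 of them were higher, in a fit in which the median over all genes was 0.80.

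**Figure D2:**
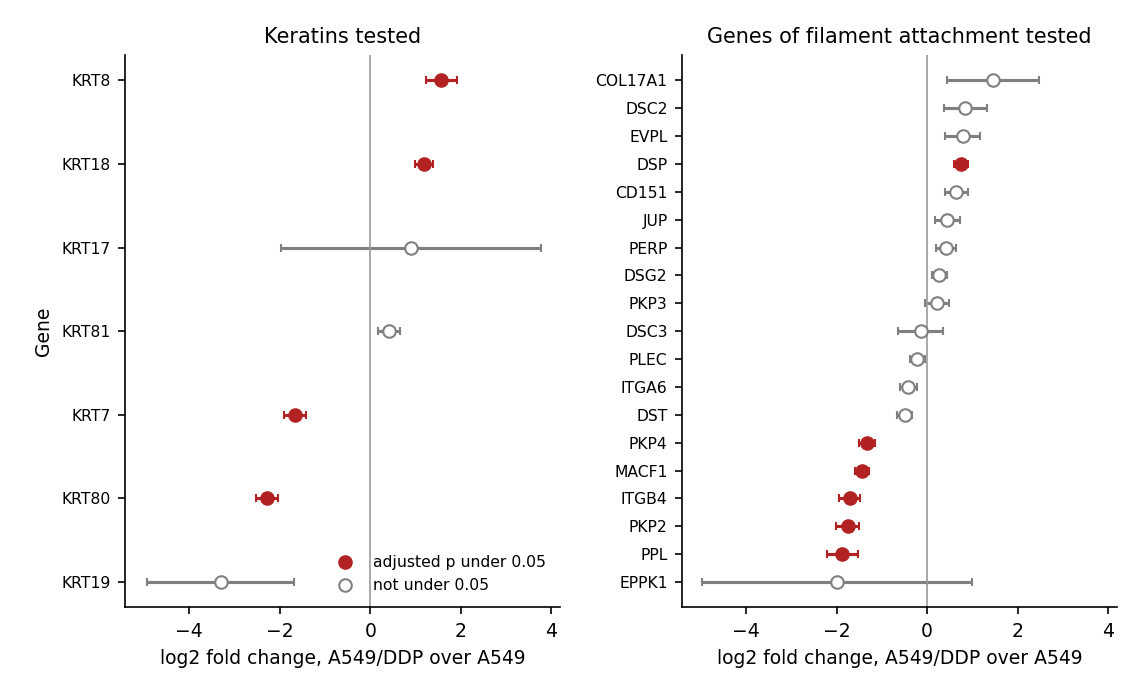
Log2 fold change of A549/DDP over A549 from edgeR for the 7 tested keratins (left) and the 19 tested genes of filament attachment (right), as points with bars of 1 approximate SE. Filled points have an adjusted p under 0.05, which holds for KRT8, KRT18 and DSP above 0 and for KRT7, KRT80 and 5 attachment genes below 0.

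Other intermediate filaments were mostly not called, with 2 of 11 tested genes higher in A549/DDP and 0 lower, beside 6.85% and 8.00% of all genes, and a median log2 fold change of 0.27. The neurofilament light chain gene NEFL rose from 12.0 and 16.1 CPM in A549 to 61.6 and 62.6 CPM in A549/DDP (log2 fold change 2.14, SE 0.27, edgeR adjusted p = 0.0075). Synemin (SYNM) rose from 38.5 and 71.3 to 161 and 123 CPM (log2 fold change 1.37, edgeR adjusted p = 0.0426). Vimentin (VIM), the filament of mesenchymal cells, was at 505 and 670 CPM in A549 and 699 and 718 CPM in A549/DDP and was not called (log2 fold change 0.27, edgeR adjusted p = 0.377).

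Of 16 genes that control keratin genes or filaments, 13 were tested, 2 were higher in A549/DDP and 1 was lower, beside 6.85% and 8.00% of all genes. ELF3, an epithelial transcription factor, rose from 89.6 and 95.9 CPM in A549 to 236 and 203 CPM in A549/DDP (log2 fold change 1.24, SE 0.17, edgeR adjusted p = 0.0098). FAM83H, a protein that organizes keratin filaments, rose from 81.7 and 80.1 to 189 and 209 CPM (log2 fold change 1.30, edgeR adjusted p = 0.0079). TRIM16, a ubiquitin ligase, fell from 264 and 284 to 145 and 141 CPM (log2 fold change -0.94, edgeR adjusted p = 0.0157). The median log2 fold change of the 13 was 0.21. Of 5 epithelial markers tested, ELF3 and CDH1 (log2 fold change 2.26, SE 0.43, edgeR adjusted p = 0.0220) were higher. EPCAM (log2 fold change -0.07, edgeR adjusted p = 0.974), CLDN4 and ESRP1 were not called.

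The m6A-seq peak lists held 26320, 14576, 27244 and 10661 peaks for A549 1, A549 2, A549/DDP 1 and A549/DDP 2, and a region was counted where same-strand peaks of any lists overlapped by 1 base or more. The lists hold no read depth or level, so a missing peak is no measure of a lower mark. The keratins had 33 regions, with 9 at KRT8, 5 each at KRT7, KRT19 and KRT17, 4 at KRT80, 3 at KRT18 and 2 at KRT81, and none was listed at KRT20, KRT5 or KRT23. Of the 33, 6 had a peak in all 4 libraries, none was held by both A549 libraries alone, and 1, at KRT19, was held by both A549/DDP libraries alone. The same counts were not made over all 37903 regions, so whether the keratins differ from the rest was not tested. Among the 7 tested keratins, KRT7, KRT8 and KRT80 had a peak in all 4 lists, which is 3 of 7 beside 13.9% of all genes tested. That background holds genes of all levels and was not matched to the high levels of KRT7 and KRT8, so the share is a description only. At peaks with p at or below 1e-05 there were 18 regions, and 0 of them were in all 4 lists.

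KRT7 had 4, 7, 5 and 6 peaks in A549 1, A549 2, A549/DDP 1 and A549/DDP 2. Its first region, at chr12:52232767-52237539 (hg38, plus strand), joined several overlapping peaks and was called in all 4 libraries. The lowest p-values of its peaks in each library were 5.1e-08, 1.2e-05, 6.5e-08 and 3.5e-06. Only a peak of A549 1 began at position -476 relative to the RefSeq start of the gene. The first peak of A549 2 began closer before that start, and those of both A549/DDP libraries began after it. Its regions at chr12:52245355-52247680 and chr12:52248207-52251786 were also called in all 4, with p-values of 0.00005 to 0.022. The first of these overlapped peaks of KRT7-AS on the minus strand in all 4 libraries. Peaks were thus held at KRT7 in both lines while its RNA was 3.16-fold lower in A549/DDP.

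To show where a KRT7 peak block lies at the start of the antisense gene, 81 bases of the plus strand at chr12:52247618-52247698 are given, taken from the RefSeq promoter window of KRT7-AS. Capitals mark the 23-base block, at chr12:52247658-52247680, of a KRT7 peak in A549/DDP 1, for which the list gives 0.0022 as the p-value.
KRT7 peak block: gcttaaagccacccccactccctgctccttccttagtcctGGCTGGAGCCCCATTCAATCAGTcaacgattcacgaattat
The letters GGAC, part of the usual m6A consensus, occur 0 times in the block on either strand. In the 81 bases they occur 0 times on the plus strand and 1 time on the minus strand. They are present in 87.4% of all RefSeq windows of 300 bases, searched on both strands. No letters of the rest of the peak were read here.

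KRT8 had 7, 4, 3 and 5 peaks. A region of 300 bases at chr12:52897237-52897536 (minus strand), at the 3′ end of the gene span, was called in all 4 libraries with p-values of 4.5e-05, 0.00022, 1.4e-07 and 1.4e-07. A second one at chr12:52904713-52906553 was likewise called in all 4, with p-values of 6.8e-05, 8.1e-06, 7.2e-08 and 1.5e-08. In both regions the deposited p-values of the A549/DDP libraries were lower than those of the A549 libraries, beside KRT8 RNA that was 2.97-fold higher in the A549/DDP inputs. The part of read depth in these p-values was not tested. The other regions were called in 1 to 3 libraries, and 4 near the 5′ end were called in A549 1 only. The region at chr12:52948620-52949406 overlapped, on the other strand, a KRT18 region at chr12:52949193-52949292.

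KRT80 had 3, 2, 1 and 2 peaks. Its region at chr12:52170246-52172329 (minus strand) held 1500 bases of peak blocks, lay 19685 to 21768 bases from the 5′ end of a span of 23019 bases, and was called in all 4 libraries with p-values of 0.00049 to 0.0011. Like KRT7, KRT80 had a region called in both lines and lower RNA in A549/DDP.

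KRT18 had 2, 0, 0 and 3 peaks. Its regions at chr12:52951763-52951961 and chr12:52952159-52952456 (plus strand) were called in A549 1 and A549/DDP 2 and not in the other library of either line, although the same-numbered inputs had 71570 counts for A549 2 and 117237 for A549/DDP 1. KRT81 had 1, 3, 0 and 2 peaks, and its p-values were listed as 0 or 1.6e-15, the lowest of the keratins. The KRT81 region at chr12:52286803-52287652 (minus strand) was called in both A549 lists and in A549/DDP 2. For KRT18 in both lines, and for KRT81 in A549/DDP, only 1 list of a line held any peak.

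KRT19 had 3, 0, 4 and 5 peaks and KRT17 had 0, 0, 0 and 5. The KRT19 region held by both A549/DDP lists alone lies at chr17:41524911-41525060 (minus strand), with p-values of 0.00011 and 2e-06. In A549/DDP 2 both genes had 5 peaks although the input of the same number had 0 counts for each. This was so for 221 of the 3818 genes with a peak in that list (5.79%), beside 4.71%, 5.21% and 5.11% in the lists of A549 1, A549 2 and A549/DDP 1. The labels describe the inputs as fragments that were not pulled down and tie an input to an m6A-seq library only by the shared number.

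**Figure D3:**
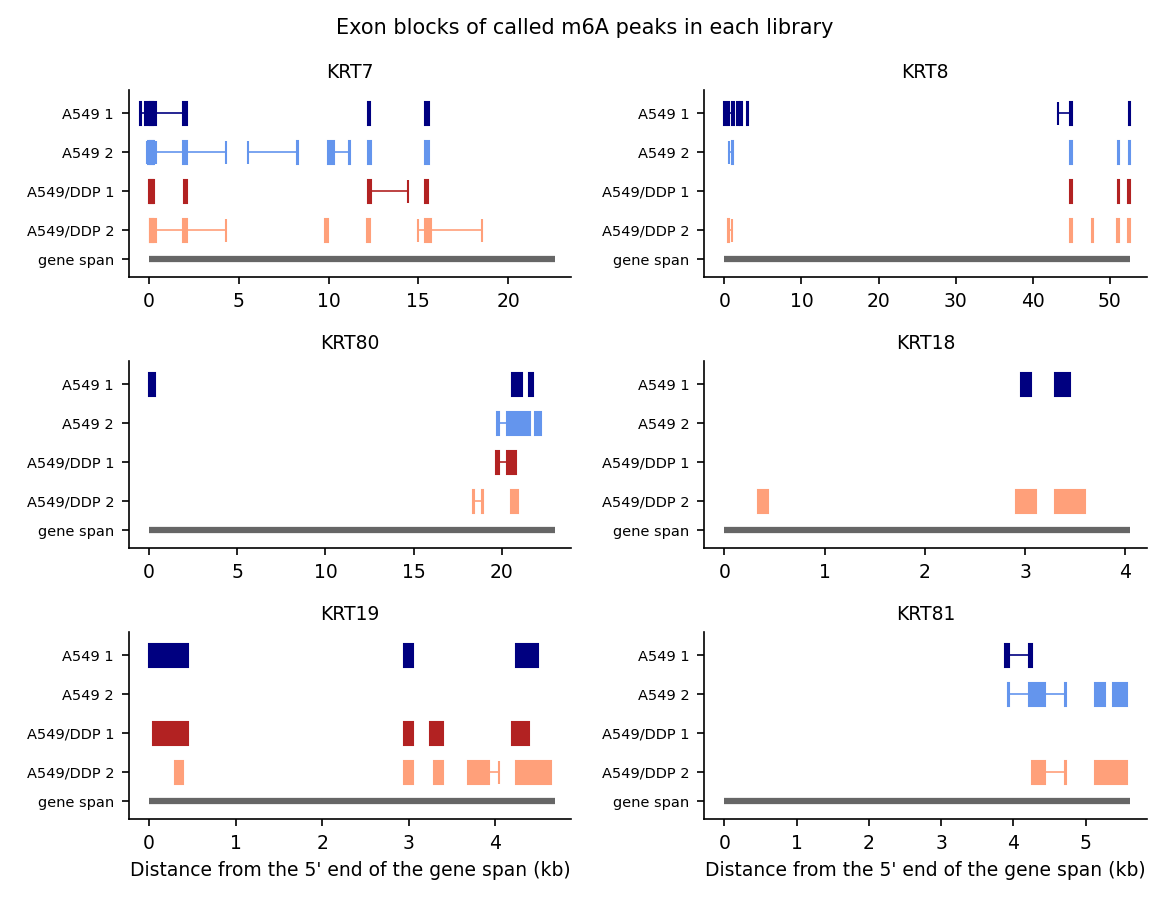
Exon blocks of called m6A peaks at 6 keratins, with 1 row for each m6A-seq library, blocks of a peak joined by a thin line, and the RefSeq gene span in grey, by distance from the 5′ end of that span in kb. All 4 libraries have blocks in 3 of 5 regions at KRT7, 2 of 9 at KRT8 and 1 of 4 at KRT80, whereas KRT18 has none in A549 2 and A549/DDP 1, KRT19 none in A549 2 and KRT81 none in A549/DDP 1.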

How the data were processed

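Per the labels, 4 input and 4 m6A-seq libraries of A549 and A549/DDP were compared. A second pair of A549 inputs entered only as an alternative. The submitters' processing notes name hg38, STAR, RSEM and bedtools without versions, and the peak caller is not given in the sources used here. Each deposited input table gives, per gene, expected counts that are estimates without normalization. It also gives TPM and FPKM, in which the authors corrected for the length of transcripts and the size of the library. For each m6A-seq library the authors deposited peaks with exon blocks, gene and a p-value, and whether that p-value is adjusted is not said. Replicate numbers were taken from the labels, and for the A549 m6A-seq libraries these are exchanged relative to the file names. Identifiers were matched to symbols for 56993 of 58037 genes.

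Rounded expected counts of genes kept by filterByExpr were scaled with TMM factors, and the lines were compared in edgeR 4.0.16 (quasi-likelihood, no block; R 4.3.3). P-values were adjusted by Benjamini-Hochberg over 16406 genes. The SE is approximate, the absolute log2 fold change over the root of edgeR's F. The alternatives were DESeq2 1.42.0, upper-quartile scaling, no filter beyond 1 count, limma 3.58.1 on log2(FPKM + 1), which understates changes of low genes, for genes with a mean FPKM of at least 1, the replicate number as a block, the second pair, each library left out, summed pseudogene or paralog counts and, for peaks, p at or below 1e-05 and a 50% overlap. Data were simulated for the comparison of A549/DDP with A549 inputs over 17463 genes. In them edgeR recovered 74% of 2-fold and 100% of 4-fold changes, and limma recovered 1.03% and 2.04%. The simulated libraries varied less within a line than the real ones, whose common coefficient of variation in edgeR was 0.656. The changed genes were drawn only from genes with ample counts. These rates are thus no measure of power in the real data. Floors are 3 counts and cover counting error only.

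All 10 keratins are named. From each further list, genes with an adjusted p under 0.05 and the largest log2 fold changes are named, at most 6, with other keratins of at least 1 CPM. KRT222, PLEC, VIM, EPCAM and further markers were named outside this rule. The members and lists were chosen with earlier results of these data known, so their shares of calls beside those of all genes are descriptions only.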

Additional observations from a re-analysis of the deposited data

How the results depend on the processing

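KRT8, KRT18 and KRT7 kept their direction and their call under all alternatives run (11, 11 and 10), and KRT80 under 9 of 10. Genes called between the inputs numbered 2437, and 4234 with DESeq2, 4010 with no filter beyond 1 count, 3758 with the second A549 pair and 2052 to 3809 with 1 library left out. Among keratins 4 were called, and 5 with no filter, where KRT19 was added, and 5 to 6 with 1 library left out. Attachment genes called numbered 6, and 1 with limma and 5 to 10 with 1 library left out. Other keratins called numbered 0, and 1 with DESeq2, 2 with no filter, 2 with the second pair and 1 to 2 with 1 library left out. KRT17 turned to -0.11 without A549 2 (range -0.11 to 6.64). Where a library was left out, the lone library of a line was assumed to vary as the other line does. Keratin m6A regions numbered 33, and 18 at p at or below 1e-05 and 25 to 33 with 1 library left out, and those in all lists numbered 6, and 0 and 6 to 9. The cause of these shifts was not tested, except that fewer lists or peaks were used. The second pair moved the median of all genes to 0.80 and the share of higher calls from 46.1% to 63.1%.

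With the replicate number as a block, 3536 genes were called, 2418 of them shared with the 2437, and 5 keratins, KRT19 being added (log2 fold change -4.92, edgeR adjusted p = 0.00963). Same-numbered inputs share only a number: with 2 pairs, the correlation of their deviations was 0.0259. Depth limits KRT5, KRT17, KRT20 and KRT23.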

Other observations

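The second pair of A549 inputs, whose labels name no experiment, held 855034 and 982036 expected counts, of which 75.2% and 73.9% were mitochondrial. Keratins were 0.0503% and 0.0523% of their TPM. Within that keratin RNA, KRT7 held 54.3% and 41.2% and KRT8 18.4% and 34.3%, beside 42.4% and 25.7% for KRT7 and 17.4% and 38.8% for KRT8 in the first pair. KRT7 had 412 and 399 counts, KRT8 119 and 257, KRT18 53 and 105, KRT81 130 and 119, and KRT19 4 and 0.

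Some keratin loci outside the family described also had m6A peaks. KRT8P12, a KRT8 pseudogene, had 3, 3, 1 and 0 peaks in A549 1, A549 2, A549/DDP 1 and A549/DDP 2, and 15.9, 9.99, 4.39 and 6.16 CPM in the same-numbered inputs. Its log2 fold change was -1.30 (edgeR adjusted p = 0.163), of the opposite sign to that of KRT8, and it was not called. KRT4 had 5 peaks, all in A549 1, and KRT10 had 1, 0, 1 and 2. Peaks on the opposite strand were found at 3 of the 33 keratin regions (9.09%) and at 6.24% of all 37903 regions.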
